A study of Mus musculus with 7 samples.

Results

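The miR-378 family of the mouse was followed through small RNA libraries of hepatocytes. Its 5 members, of 1966 mature miRNAs listed in each count table, were taken by name: mmu-miR-378a-3p, mmu-miR-378a-5p, mmu-miR-378b, mmu-miR-378c and mmu-miR-378d. The family was selected on the genotype contrast of these same libraries, in which miR-378a-3p ranked 5 and miR-378c ranked 9 of 450 tested miRNAs by p-value. Differences between the genotypes are therefore given below as a description, with no test on the members.

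The study is concerned with ALAS, 5-aminolevulinate synthase, and a possible bearing of it on silencing by small RNAs. ALAS catalyses the first step of heme synthesis, with ALAS1 made in all tissues and ALAS2 in red cell precursors. Libraries came from liver cells freed by collagenase and enriched for hepatocytes by slow centrifugation, from WT mice (n = 3) and ALAS12-KO mice (n = 4). Both genotypes carry the treatment label TMX, which is not spelled out, and the labels give no promoter or Cre line, no age, no batch and no statement that each replicate is another animal. The spread between libraries may therefore be partly technical. Messenger RNAs were not measured in these libraries, so the loss of Alas1 or Alas2 and the level of Ppargc1b, the host gene of miR-378a, were not checked here.

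A microRNA is cut from a hairpin, whose 2 arms can each give a mature strand of about the same length. One strand is usually kept by an Argonaute protein, and the bases next to its 5′ end, the seed, pair with target messenger RNAs. miR-378a lies in an intron of Ppargc1b, which encodes PGC-1β, a coactivator of genes of mitochondrial oxidation. PGC-1β and miR-378a are known to act in opposite directions on fat oxidation: miR-378a-3p represses Crat, carnitine acetyltransferase, and in liver also the p110α subunit of PI3 kinase, a part of insulin signalling, and miR-378a-5p represses Med13, a Mediator subunit. The hairpin is abundantly expressed in skeletal muscle, heart, brown fat and liver.

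The paralogs of miR-378a differ from each other in few bases, which decides both what they could pair with and how well their reads can be told apart. RefSeq sequences on GRCm38.p6 were matched for 3 of the 5 members, and the seeds (bases 2 to 8) are in capitals here.
mmu-miR-378c: aCUGGACUuggagucagaagc
mmu-miR-378b: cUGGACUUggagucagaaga
mmu-miR-378d: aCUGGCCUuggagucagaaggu

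With positions counted from 1 at the 5′ end of miR-378c, miR-378d has the substitutions A6C and C21G over the 21 bases in common. The first of these lies in the seed. miR-378b begins 1 base further in than miR-378c and then has the single substitution C21A over 20 bases. The later start moves its seed by 1 base, so the 3 paralogs have 3 different seeds. Each of these seeds occurs in 1 of the 1679 mature miRNAs in the RefSeq table. The longest run common to the 3, CUUGGAGUCAGAAG of 14 bases, occurs in no other entry of that table. The table holds no entry for miR-378a, so these counts cannot say whether miR-378a-3p has one of the seeds or this run.

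The hairpins show that the paralogs are not cut from the same side. The mature strand is in capitals.
mir-378c: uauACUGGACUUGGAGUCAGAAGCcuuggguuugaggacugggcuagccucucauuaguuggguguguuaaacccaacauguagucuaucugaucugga
mir-378d: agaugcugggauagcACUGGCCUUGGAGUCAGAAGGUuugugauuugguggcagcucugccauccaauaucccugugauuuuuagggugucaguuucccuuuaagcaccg
mir-378b: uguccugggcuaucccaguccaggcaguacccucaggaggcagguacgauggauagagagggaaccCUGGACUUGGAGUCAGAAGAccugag

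In the miR-378c hairpin the mature strand covers bases 4 to 24 of 99, and in that of miR-378d bases 16 to 37 of 110, both on the 5′ side. In the miR-378b hairpin it covers bases 67 to 86 of 92, on the 3′ side, as the name of miR-378a-3p says for that hairpin. On GRCm38 (mm10), GENCODE M21 places Mir378c at 46954830 to 46954928 of chromosome 14, minus strand, in an intron of Samd4, which runs on the other strand. Mir378d is at 126710282 to 126710391 of chromosome 10, minus strand, with no overlapping gene. Mir378b is at 88352773 to 88352864 of chromosome 11, plus strand, in an intron of Msi2, again on the other strand.

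Mir378a, at positions 61397835 to 61397900 of the minus strand of chromosome 18, is the only one of the 4 hairpins that lies in an intron of a gene of its own strand, Ppargc1b. A second annotated miRNA gene, Gm25301, overlaps it on the plus strand. Whether the authors counted by strand is not given in the sources used here, so reads of both strands cannot be told apart.

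Depth and makeup of the libraries set the frame for these values. The tables hold 7719180 to 21962191 miRNA reads per library, so a value of 1 CPM (counts per 1000000 miRNA reads) stands for 7.72 to 22.0 reads. CPM are shares of a library's miRNA reads, so a change of all miRNAs together would not be seen. The ALAS12-KO libraries mostly differed more among themselves than the WT libraries: the chi-square per degree of freedom over all miRNAs was 65.3 between replicates 3 and 4, 142 between replicates 1 and 2, and 135 to 522 for the other pairs. Within WT it ran from 48.8 to 84.2. Hepatocyte miRNAs (6 of 6 markers present, led by miR-122-5p) took 62.4% to 65.2% of reads in WT and 59.7% to 68.1% in ALAS12-KO. ALAS12-KO replicate 1 had the lowest summed level of all 7 libraries for the markers of endothelial, leukocyte, mesenchymal, bile duct, red and muscle cells. Muscle and heart markers, which matter here because miR-378 is abundant there, summed to 5.37 to 9.07 CPM in WT and 1.90 to 6.65 CPM in ALAS12-KO over 7 listed miRNAs, and miR-208b-3p was at 0 in every library.

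miR-378a-3p is the member that carries most of the family's reads. It stood at 719, 609 and 599 CPM in WT replicates 1 to 3 and at 756, 770, 1505 and 1208 CPM in ALAS12-KO replicates 1 to 4. All ALAS12-KO libraries were above all WT libraries, which held for 5.33% of all tested miRNAs (24 of 450). On library totals, ALAS12-KO replicates 1 and 2 were above only by a little, whereas replicates 3 and 4 stood well apart. The TMM factors, described below, were lowest for replicates 1 and 2 (0.806 and 0.879), so TMM scaling sets these 2 further above WT. The means were 642 ± 66.7 CPM (SD, n = 3) and 1059.8 ± 364 CPM (SD, n = 4), a ratio of 1.65, and the spread within ALAS12-KO, a coefficient of variation of 34.3%, was more than that of 10.4% in WT. By mean CPM it ranked 51 of 1966 miRNAs, between miR-10a-5p at 885 CPM and miR-20a-5p at 789 CPM.

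miR-378a-5p is the other arm of the same hairpin, the minor strand. It stood at 97.1, 96.9 and 94.2 CPM in WT and at 117, 117, 92.2 and 109 CPM in ALAS12-KO replicates 1 to 4. The WT libraries were nearly equal, 3 of the 4 ALAS12-KO libraries were above them, and ALAS12-KO replicate 3, the highest of all for the 3p arm, was the lowest of all 7 for this arm. The means were 96.1 ± 1.64 CPM (SD, n = 3) and 109 ± 11.5 CPM (SD, n = 4).

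miR-378c is the paralog with the most reads. It stood at 70.2, 57.9 and 60.4 CPM in WT and at 75.3, 69.1, 111 and 111 CPM in ALAS12-KO, with ALAS12-KO replicate 2 below WT replicate 1 and replicates 3 and 4 highest, as for miR-378a-3p. The means were 62.8 ± 6.50 CPM (SD, n = 3) and 91.6 ± 22.6 CPM (SD, n = 4). miR-378a-3p and miR-378c are of nearly the same sequence, and the files do not show how reads that match both were assigned, so the 2 values are uncertain one by one.

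miR-378b was rare, with 30 to 70 reads per library. It stood at 3.25, 2.69 and 3.89 CPM in WT and at 3.72, 3.17, 4.10 and 3.60 CPM in ALAS12-KO. The groups overlapped, and 3 of the 4 ALAS12-KO values were within the WT range. The 95% counting interval (exact Poisson, counting error only) of the lowest library, 2.05 to 3.47 CPM, and of the highest, 3.19 to 5.17 CPM, overlapped as well.

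miR-378d was near the limit of detection, with 6 to 16 reads per library. It stood at 0.499, 0.455 and 0.777 CPM in WT and at 1.06, 0.594, 0.936 and 0.916 CPM in ALAS12-KO. Replicates 1, 3 and 4 of ALAS12-KO were above all WT libraries, and replicate 2 was inside their range. The counting interval of WT replicate 2, 0.218 to 0.837 CPM, overlapped that of ALAS12-KO replicate 1, 0.581 to 1.78 CPM. Whether these libraries differed beyond counting error was not tested. All 5 members passed the filter on low counts, but miR-378d reached its level of 0.624 CPM in 1 WT and 3 ALAS12-KO libraries, so it passed through the group in which it was higher.

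**Figure D1:**
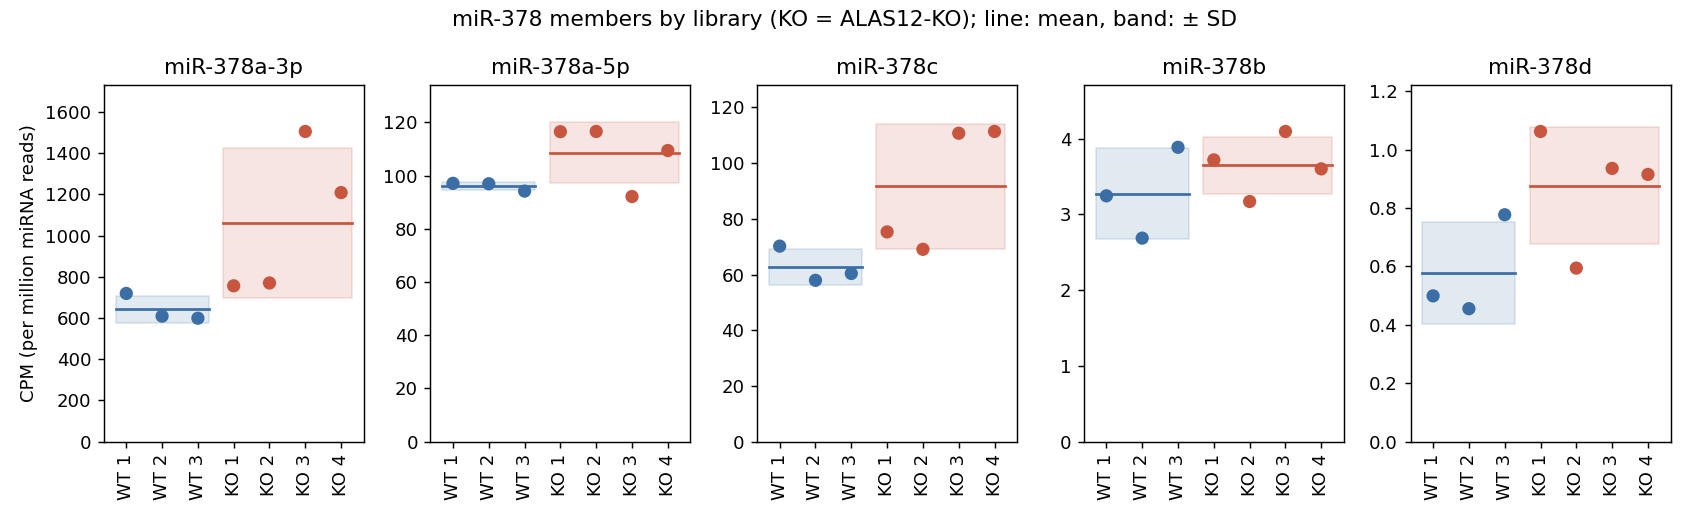
Levels in CPM of the 5 miR-378 members (vertical axes, each from 0 and on its own scale) in each of the 3 WT and 4 ALAS12-KO libraries (points), with the group mean (line) and ± SD (band). miR-378a-3p and miR-378c are highest in ALAS12-KO replicates 3 and 4, at 1505 and 1208 CPM and at 111 CPM in both, whereas miR-378a-5p is lowest in replicate 3, at 92.2 CPM.

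The order of the levels was miR-378a-3p, miR-378a-5p, miR-378c, miR-378b and miR-378d. Reads of different miRNAs are compared here as reads, since mature strands are of nearly equal length. Each step of this order but that from miR-378a-5p to miR-378c held in 7 of 7 libraries. miR-378a-5p was above miR-378c in 3 of 3 WT and 2 of 4 ALAS12-KO libraries. In ALAS12-KO replicates 3 and 4 miR-378c had 120% and 102% of the reads of miR-378a-5p, against 59.7% to 72.3% in WT. In the WT libraries miR-378a-3p made up 79.7% ± 0.938 (SD, n = 3) of the family's reads, and in the ALAS12-KO libraries 82.9% ± 3.92 (SD, n = 4).

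As a whole, the 5 members made up 0.0805% ± 0.00738 (SD, n = 3) of all miRNA reads of the WT libraries and 0.126% ± 0.0374 (SD, n = 4) of those of the ALAS12-KO libraries. The summed level was 890.0, 767 and 758 CPM in WT and 952, 959, 1713 and 1434 CPM in ALAS12-KO. The groups did not overlap, and the 2 lowest ALAS12-KO libraries were close to the highest WT library. Most of the sum is miR-378a-3p, so it follows that member.

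Fitted with the quasi-likelihood method of edgeR on TMM-scaled counts, the log2 fold change (ALAS12-KO over WT, ± SE) was 0.86 ± 0.19 for miR-378a-3p, 0.38 ± 0.21 for miR-378a-5p, 0.70 ± 0.18 for miR-378c, 0.36 ± 0.24 for miR-378b and 0.86 ± 0.36 for miR-378d. All 5 were above 0, as were 56.0% of the 450 tested miRNAs. With an adjusted p under 0.05 as the threshold, edgeR called 0 of the 5 members and 0% of all tested miRNAs (0 of 450, with 84 at unadjusted p under 0.05). DESeq2 called 21 and limma-voom 0, with 90 at unadjusted p under 0.05. Of the 5, miR-378a-3p was the 1 whose ALAS12-KO libraries were all above WT in CPM on library totals, as were 5.33% of all tested miRNAs (24 of 450), while 15.3% (69 of 450) were all below WT. On TMM-scaled CPM this held for 3 of the 5 (miR-378a-3p, miR-378c and miR-378b) and for 10.9% of all (49 of 450). The family was chosen on this contrast, so nothing is read from these counts.

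Scaling bears on all of these differences, and most on the smaller ones. TMM-scaled values, like CPM, are relative to the other miRNAs of a library. TMM factors were 0.806 and 0.879 for ALAS12-KO replicates 1 and 2 and 1.02 to 1.13 for the other 5 libraries, and with library totals alone the middle value of the log2 fold change over the tested miRNAs moved from 0.06 to −0.12. With library totals the log2 fold change was 0.72 for miR-378a-3p, 0.54 for miR-378c, 0.69 for miR-378d, 0.18 for miR-378a-5p and 0.17 for miR-378b, against 0.38 and 0.36 with TMM for the last 2. The TMM value for miR-378a-5p was 0.24 without ALAS12-KO replicate 1 and 0.23 when only miRNAs with a mean of at least 10 CPM were kept.

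**Figure D2:**
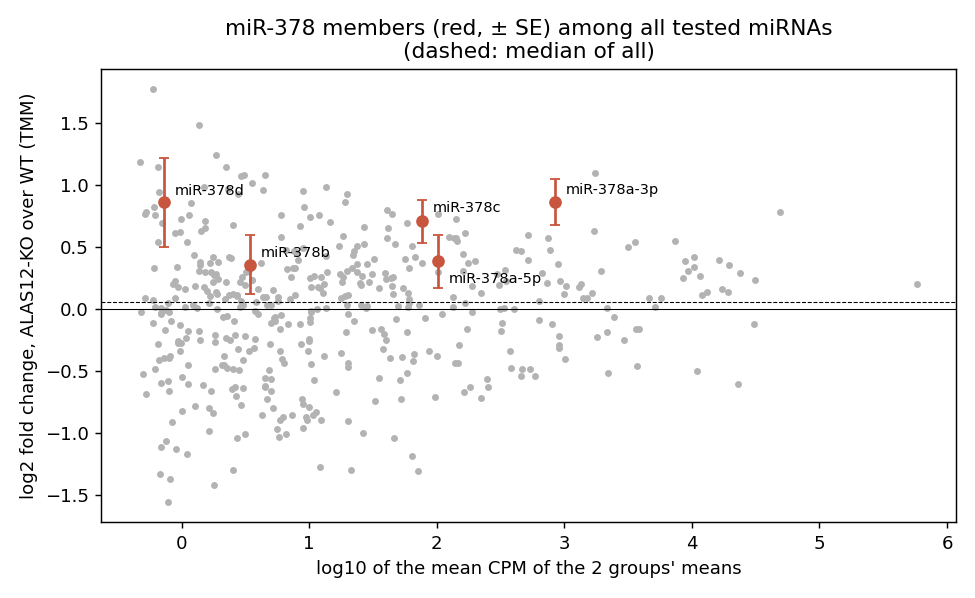
Log2 fold change of ALAS12-KO over WT from the TMM-scaled edgeR fit (vertical axis) against log10 of the mean CPM (horizontal axis) for 450 miRNAs (grey) and the 5 miR-378 members (red, ± SE). The members lie between 0.36 and 0.86, above the median of all miRNAs at 0.06 (dashed line), and were chosen with this contrast known.

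The balance of the 2 arms of the miR-378a hairpin does not depend on library scaling. miR-378a-5p reads came to 13.5%, 15.9% and 15.7% of miR-378a-3p reads in WT replicates 1 to 3. They came to 15.4% and 15.1% in ALAS12-KO replicates 1 and 2 and to 6.12% and 9.06% in replicates 3 and 4. So 2 ALAS12-KO libraries had the balance of WT and 2 had fewer 5p reads for each 3p read, and the groups overlapped. The log2 ratio of the 3p to the 5p arm was 2.74 ± 0.13 (SD, n = 3) for the WT libraries and 3.23 ± 0.64 (SD, n = 4) for the others.

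The difference, 0.49 ± 0.34 (SE, limma), ranked 28 by size among 130 hairpins with both arms past the filter, and limma called 0 of these hairpins (0%, with 7 at unadjusted p under 0.05). It came to 0.23 ± 0.24 without ALAS12-KO replicate 3. Across the 7 libraries the log2 ratio of miR-378a spanned 1.38, against a median span of 0.63 over the 49 hairpins whose arms both have a mean of at least 10 CPM, where it ranked 12. Over all 130 hairpins, which include arms with few reads, the median span was 1.07 and miR-378a ranked 44.

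miR-378c kept more nearly to the 3p arm than miR-378a-5p did. Its reads came to 9.77%, 9.51% and 10.1% of miR-378a-3p reads in WT and to 9.96%, 8.97%, 7.36% and 9.22% in ALAS12-KO. ALAS12-KO replicate 3 was again the lowest, but the highest of the 7 values was only 1.37 times the lowest, against 2.60 times for the 5p arm. miR-378b reads came to 0.441% to 0.649% of miR-378a-3p reads in WT and to 0.272% to 0.492% in ALAS12-KO, lowest in replicates 3 and 4. How much of the miR-378c count comes from miR-378a-3p reads was not tested.

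**Figure D3:**
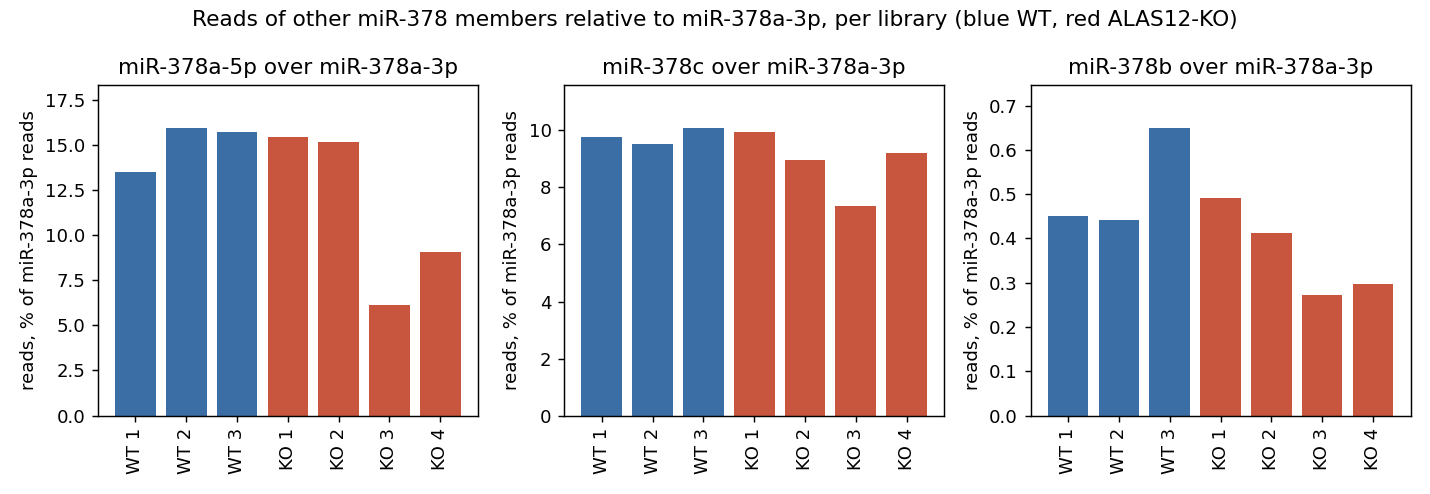
Reads of miR-378a-5p, miR-378c and miR-378b as a percent of miR-378a-3p reads (vertical axes, from 0) in each WT (blue) and ALAS12-KO (red) library. The 5p arm is at 13.5% to 15.9% in all WT libraries and in ALAS12-KO replicates 1 and 2, and at 6.12% and 9.06% in replicates 3 and 4, whereas miR-378c stays between 7.36% and 10.1%.

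Cell type markers and depth also differed between ALAS12-KO replicates 3 and 4 and replicates 1 and 2, and some markers between the genotypes. The hepatocyte markers summed to 59.7% and 62.1% of reads in replicates 3 and 4 and to 68.1% and 66.3% in replicates 1 and 2. Most of this sum was miR-122-5p, at 534763 and 561168 against 615065 and 595984 CPM. The list did not move together. miR-192-5p was also lower in replicates 3 and 4, but miR-122-3p was higher, at 1270 and 931 against 650 and 578 CPM. For miR-148a-3p and miR-802-5p the 2 pairs of libraries overlapped. Endothelial markers (2 of 2 present) summed to 3.65% and 2.96% against 1.10% and 2.55%, with 3.56% to 5.25% in WT. Leukocyte markers (6 of 6) summed to 0.977% and 0.826% against 0.293% and 0.640%, with 0.801% to 1.08% in WT, and mesenchymal markers (5 of 5) to 0.573% and 0.412% against 0.156% and 0.352%, with 0.416% to 0.697% in WT. Bile duct markers (5 of 5) summed to 0.0139% to 0.0243% in WT and to 0.00544% to 0.0105% in ALAS12-KO, and red cell markers (4 of 4) to 0.00205% to 0.00272% and to 9.11e-04% to 0.00203%. In the sums of these 2 lists, of which the second also holds a miRNA of the metabolic list, miR-144-3p, all ALAS12-KO libraries were below all WT libraries. The bile duct markers did not move together. With TMM the log2 fold change was −1.31 for miR-200a-3p, −1.30 for miR-200b-3p and −1.27 for miR-429-3p. It was −0.07 for miR-200c-3p and −0.10 for miR-141-3p. Among the mesenchymal markers it was 0.39 ± 0.53 for miR-214-3p and −0.72 to −0.46 for the others. The libraries of ALAS12-KO replicates 3 and 4 had 17091539 and 16383220 miRNA reads, those of 1 and 2 had 13173025 and 10093244, and those of WT had 7719180 to 21962191. The part of cell makeup or depth in the result was not tested. In bulk samples fewer cells of a type and less RNA per cell cannot be told apart.

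The miRNAs whose pattern over the 7 libraries was most like that of miR-378a-3p were found among 219 others with a mean of at least 10 CPM. Likeness was the root mean square difference of log2(CPM + 1) after each miRNA was centred on its own mean. The nearest 5 were miR-28a-5p (0.10), miR-872-5p (0.12), miR-21a-5p (0.13), miR-1843a-5p (0.16) and miR-1948-3p (0.16), against a median of 0.51 over all 219. For miR-378c, at 0.15, 3 miRNAs were nearer, whereas 96 miRNAs were nearer to miR-378a-3p than its own other arm, at 0.49.

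For miR-378a-5p the nearest were miR-192-5p (0.05), miR-28a-3p (0.06), miR-194-5p (0.07), miR-676-3p (0.09) and let-7f-2-3p (0.09), with a median of 0.32. miR-192-5p and miR-194-5p are abundant in liver and come from shared clusters. The points of these comparisons share library depth and scaling, and likeness says nothing of shared control.

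miR-28a, from an intron of Lpp on chromosome 16 (24827855 to 24827940, plus strand), thus had 1 arm near each arm of miR-378a. miR-28a-5p stood at 14.4, 14.8 and 13.9 CPM in WT and at 16.5, 15.4, 36.2 and 27.5 CPM in ALAS12-KO replicates 1 to 4. miR-28a-3p stood at 55.2 to 59.3 CPM in WT and at 68.0, 66.8, 56.2 and 60.8 CPM in ALAS12-KO. The 5p arm was high in ALAS12-KO replicates 3 and 4, and the 3p arm was not. The 5p reads came to 24.3%, 26.8% and 23.6% of the 3p reads in WT, to 24.2% and 23.0% in ALAS12-KO replicates 1 and 2, and to 64.3% and 45.3% in replicates 3 and 4. In miR-378a the arm that was high in these libraries is the major one and in miR-28a the minor one. The mature strands are shown because none has a seed of the miR-378 paralogs printed above, with the seed again in capitals.
mmu-miR-28a-5p: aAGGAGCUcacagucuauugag
mmu-miR-28a-3p: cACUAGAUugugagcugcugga
mmu-miR-872-5p: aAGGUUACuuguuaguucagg
mmu-miR-21a-5p: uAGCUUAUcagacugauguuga

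miR-21a-5p, a miRNA of injured and growing tissue, stood at 41968, 35515 and 38577 CPM in WT and at 51744, 42056, 77365 and 66109 CPM in ALAS12-KO. miR-872-5p stood at 72.4 to 87.4 CPM in WT and at 88.4, 78.0, 189 and 141 CPM in ALAS12-KO. Both were highest in ALAS12-KO replicates 3 and 4, in the same order as miR-378a-3p. They were picked for their likeness to it over these libraries, so this is no separate result.

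**Figure D4:**
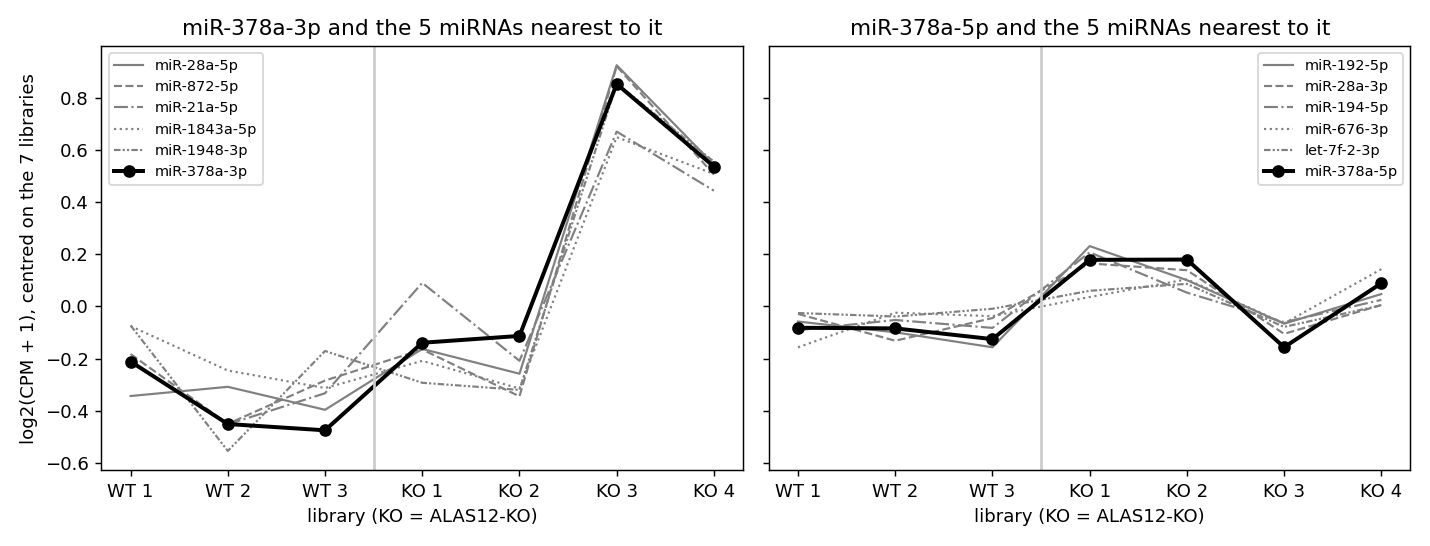
Levels of miR-378a-3p and miR-378a-5p (black) and of the 5 miRNAs nearest to each (grey), as log2(CPM + 1) centred on the mean of the 7 libraries (vertical axis), by library (horizontal axis); lines only join the values of 1 miRNA. The miR-378a-3p group is highest in ALAS12-KO replicate 3 and next in replicate 4, and the miR-378a-5p group varies less, with miR-28a supplying 1 arm to each panel. Each group was picked by likeness over these libraries, so the shared pattern follows from the choice.

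The wider setting is a list of 30 miRNAs of liver lipid, glucose and mitochondrial metabolism, of which 29 are in the tables and 27 were tested. With TMM scaling 21 were above 0 and 6 below, edgeR called 0, and the median log2 fold change was 0.28, against 0.06 over all 450. With library totals the split was 15 to 12 and the median 0.10. The groups did not overlap for 3 of the 27 on the higher side (miR-30c-5p, miR-96-5p and miR-34a-5p) and 4 on the lower side (miR-27a-3p, miR-144-3p, miR-223-3p and miR-494-3p), against 5.33% and 15.3% of all tested miRNAs, all 7 but miR-30c-5p named after their values were seen.

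Of its 6 most abundant members, miR-22-3p and miR-26a-5p were also highest in ALAS12-KO replicates 3 and 4. miR-22-3p stood at 3428, 3027 and 2849 CPM in WT and at 3327, 3123, 5079 and 4584 CPM in ALAS12-KO, with a log2 fold change of 0.53 ± 0.14. miR-30c-5p, which represses a protein needed to load lipid onto lipoproteins, stood at 2677 to 2952 CPM in WT and 3314 to 3713 CPM in ALAS12-KO, where replicates 3 and 4 were the lower ones. miR-26a-5p stood at 8709 to 8943 CPM in WT and at 7618, 8476, 11772 and 11286 CPM in ALAS12-KO. On library totals its replicates 1 and 2 were thus below WT. Its log2 fold change was 0.31 ± 0.11 with TMM, which raises these 2 libraries, and 0.15 with library totals. The log2 fold change of miR-148a-3p was 0.29 ± 0.16, that of miR-122-5p, the major hepatocyte miRNA, 0.20 ± 0.16 and that of miR-27b-3p 0.09 ± 0.14, the last 2 of which changed sign with library totals (−0.0046 and −0.11).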

How the data were processed

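The authors deposited raw counts, whole numbers of reads for each mature miRNA, in 1 table per library. Cutadapt, limma, mm10 and hg38 are named, with no role, in the submitters' processing notes. Which aligner and counter were used is not given in the sources used here. Entries for reads given to no miRNA were left out (reads outside any miRNA were 50.9% to 73.7% of all reads). CPM are per 1000000 summed miRNA reads. Genotypes were compared over all miRNAs with edgeR 4.0.16 in R 4.3.3 (quasi-likelihood, robust, TMM, filterByExpr with a minimum count of 10, Benjamini-Hochberg, threshold 0.05). The SE given with an edgeR log2 fold change is its size divided by the square root of the F statistic of its test. Arms were compared with limma 3.58.1 on the log2 ratio with 0.5 added. Both were tested on simulated counts. No 2 libraries of 1 group differed by as little as sampling noise. Replicate numbers carry no stated pairing, so no block was used in the main fit. Deviations of same-numbered libraries from their group means had correlations of −0.48 to 0.03. With so few libraries these cannot exclude a pairing.

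Members, lists and tests were chosen with earlier results of these data known. Named are all members, the 5 miRNAs nearest to each miR-378a arm, the 6 most abundant tested of the metabolic list and the abundance neighbours of miR-378a-3p. Sequences are from RefSeq and positions from GENCODE M21, read with Python 3.11.15. Alternatives were other scalings, filters, DESeq2 1.42.0, limma-voom, a block on replicate number and each library left out in turn.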

Additional observations from a re-analysis of the deposited data

How the results depend on the processing

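The log2 fold changes of the 5 members were above 0 in all 73 values from the alternatives. These are refits of the libraries on which the family was chosen, so their shared sign is no separate support. For miR-378a-3p the log2 fold change ran from 0.67 (without ALAS12-KO replicate 3) to 0.95 (without WT replicate 1). Adding the reads of miR-378b, c and d, an alternative chosen after the data were seen, gave 0.82. The number of miRNAs called was 0 of 450 with edgeR and 2 of 450 with library totals. It was 13 of 1302 with no filter on low counts, 21 of 450 with DESeq2, and 0 to 1 when each library was left out. miR-378a-3p was among those called with no filter and by DESeq2, and miR-378c among those of DESeq2. Both ranked high on the contrast used to choose the family, so nothing is read from these calls. miRNAs with all ALAS12-KO libraries above WT numbered 24, but 49 with TMM scaling, 47 with DESeq2 size factors and 37 with no filter. They numbered 22 with upper-quartile factors and 17 of 222 with a mean of at least 10 CPM. When each library was left out they numbered 27 to 40, with fewer libraries to be separated. With TMM scaling miR-378c and miR-378b were among the 49. The arm difference of miR-378a ran from 0.23 to 0.67 when each library was left out, and 0 hairpins were called in all settings run. The causes were not tested. With the replicate number as a block, edgeR called 0 (60 at unadjusted p under 0.05), and 0 of the 3 WT libraries correlated best with the ALAS12-KO library of its own number. Depth limits miR-378d, at 6 to 16 reads per library.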
